A study of Arabidopsis thaliana with 27 samples.

Results

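MIR822A (locus AT5G03552) is the Arabidopsis gene of the microRNA miR822, and its counts were followed across 3 genotypes and 3 UV-B treatments. It is 1 of the 323 miRNA loci in the miRNA count table and 1 of the 2071 loci in the table of all small RNAs. The locus was chosen by its symbol, with its low level in uvr8-6 already known from these libraries. Differences of MIR822A between uvr8-6 and the other genotypes are therefore given as a description, without a test. Dose effects within a genotype, the comparison of xpf-3 with wild type, and the differences between genotypes in their dose effects were tested.

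Small RNA was sequenced from etiolated hypocotyls, the stems of dark-grown seedlings, in 27 libraries. The genotypes were wild type (WT, Columbia-0), xpf-3 and uvr8-6, and each was kept as a dark control or given 3000 or 30000 µmol m-2 of UV-B, with 3 libraries for each of the 9 groups. Seeds of all groups had spent 2.5 days in darkness on MS medium at 0.5x strength that contained GA4 at 100 µM, a gibberellin that promotes germination and elongation, and were returned to darkness after the exposure. The extraction protocol puts excision at 6 hours after UV-B, whereas the series title gives 2 days. The 2 doses were reached by exposures of different length, so dose and duration changed together. The labels do not say whether the 3 libraries of a group came from separate cultures, so p-values measure the spread between these libraries, which may be technical. The mutant alleles could not be checked, because mRNAs were not measured.

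UVR8 is the plant UV-B photoreceptor, which loses its dimer form on absorbing UV-B and then signals through the COP1 protein to change transcription. XPF is a subunit of the endonuclease that cuts beside damaged bases in nucleotide excision repair. MicroRNAs are cut from hairpin precursors by Dicer-like enzymes, pair with mRNAs and lead to their cleavage or reduced translation. Most plant miRNAs are made by DCL1 from short hairpins, but miR822 is known in Arabidopsis to be made by DCL4 from a long, nearly perfectly paired hairpin. It belongs to the miRNAs found only in Arabidopsis and its close relatives, and its known targets are mRNAs of Cys/His-rich C1 domain (DC1) proteins.

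The mature sequences are shown because they set which mRNAs the miRNA can pair with. Both are annotated by RefSeq on TAIR10.1 at 21 nt, and capitals mark the seed, bases 2 to 8.
ath-miR822-5p: uGCGGGAAgcauuugcacaug
ath-miR822-3p: uGUGCAAAugcuuucuacagg
Each had 1 exact match in the TAIR10.1 genome, the 5p arm at chr5:897287-897307 and the 3p arm at chr5:897067-897087, both on the minus strand. No other annotated Arabidopsis mature miRNA shared either seed, and none shared more than 11 of the 21 bases by position. The mature arms therefore have no near copy among annotated mature miRNAs with which their reads could be divided. The rest of the precursor was not searched for copies, and how reads with several matches were treated is not stated by any label. The gene lies on the opposite strand within AT5G03553, an uncharacterized protein-coding gene, and overlaps none of the exons of its 1 annotated transcript. Whether counting used the strand is not stated either, so reads of the 2 genes could not be told apart by strand.

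The hairpin between the arms is shown because its length is what sets this precursor apart from most. It is printed from the 5p arm to the 3p arm (chr5:897067-897307, minus strand, 241 nt of a 337-nt annotated precursor), with both mature arms in capitals.
miR822 precursor: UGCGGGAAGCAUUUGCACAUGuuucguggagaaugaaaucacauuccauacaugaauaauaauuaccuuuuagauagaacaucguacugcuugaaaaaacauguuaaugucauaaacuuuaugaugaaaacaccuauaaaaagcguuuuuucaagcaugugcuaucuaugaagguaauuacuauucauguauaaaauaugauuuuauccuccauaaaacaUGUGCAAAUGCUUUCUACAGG
The arms are 199 nt apart, against a median of 53 nt over the 94 Arabidopsis miRNA genes with both arms annotated, 4 of which have a longer distance. The predicted minimum free energy fold of the printed stretch was −105.5 kcal/mol, with 1 hairpin loop and 194 of its 241 bases paired (80.5%). In that fold 20 of the 21 bases of the 5p arm were paired, 18 of them with the 3p arm.

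Complementary sites were searched in the transcripts of 27562 protein-coding genes, counting a G:U pair as a mismatch. The 5p arm had a site with at most 4 mismatches in 18 genes, and all 18 were annotated with C1 or DC1 domain products, a class of 151 genes (0.548% of those searched). The 3p arm had such a site in 11 genes, of which 0 were in that class. The 4 genes with the fewest mismatches are shown with paired bases in capitals, 5′ to 3′ along the mRNA. All 4 sites lie in coding sequence.
AT2G13900: CAUGUGCAAAUGCUUCuCGCA
AT5G02330: CAUGUGCAAAUGCUUCuCGCA
AT5G02350: CAUGUGCAAAUGCUUCuCGCA
AT2G02620: CAUGUGCAgAUGCUcCCCGCA
The first 3 sites are identical and have 1 mismatch, a G:U pair, and the last has 2 mismatches, 1 of them a G:U pair. A match is a description of the sequence, and the levels of these mRNAs were not measured here.

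MIR822A received 53474 counts over the 27 libraries, from 398 to 4633 in a library. Of these, 22593 were from wild type, 21917 from xpf-3 and 8964 from uvr8-6. It was among the most counted miRNA loci, ranking between 5 and 8 of 323 in every wild type and xpf-3 library and between 10 and 14 in every uvr8-6 library. Ranks are of counts per locus and not per length, and the 2 arms were not counted separately.

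Libraries held 681228 to 1970871 counts at all loci (median 1173114) and 15790 to 67899 counts at miRNA loci (median 42180). The miRNA share of all counts was lower on average after the higher dose than in the dark in each genotype. It was 4.81% ± 1.74 (SD, n = 3) in dark wild type and 2.96% ± 0.990 after 30000 µmol m-2. It was 4.23% ± 1.43 and 3.11% ± 0.197 in xpf-3, and 3.35% ± 0.491 and 2.30% ± 0.904 in uvr8-6. A level of MIR822A therefore depends on its denominator, and 2 scales are given. The first is CPM of miRNA counts (miRNA CPM) and the second CPM of all small RNA counts (all-RNA CPM), both scaled by TMM, a trimmed mean that aligns libraries on the bulk of their loci. In bulk tissue, fewer cells making a miRNA and less of it per cell cannot be told apart.

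In dark wild type, the 3 libraries had 2813, 4013 and 2315 counts, or 57263, 56472 and 64663 miRNA CPM. After 3000 µmol m-2 the wild type libraries had 58810, 55268 and 61040 miRNA CPM, and after 30000 µmol m-2 they had 60405, 47412 and 55188. The 3 wild type groups overlapped throughout, with means of 59466 ± 4518, 58372.5 ± 2911 and 54335 ± 6538 miRNA CPM (SD, n = 3).

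In dark xpf-3, the libraries had 95170, 58023 and 58180 miRNA CPM, so replicate I stood far above the other two. After 3000 µmol m-2 they had 43580, 54290 and 53140, and after 30000 µmol m-2 they had 46994, 56783.5 and 44910. Every UV-B-treated xpf-3 library lay below every dark xpf-3 library, the nearest pair being 56783.5 and 58023. Among the 101 miRNAs tested, 14.9% showed such a separation downward after the lower dose in xpf-3 and 15.8% after the higher dose.

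In uvr8-6, the dark libraries had 34380, 28426 and 24793 miRNA CPM, from 1632, 610 and 936 counts. After 3000 µmol m-2 they had 28400, 21691 and 31830, and after 30000 µmol m-2 they had 25798.5, 15848 and 24953.5. All 9 uvr8-6 libraries lay below all 18 libraries of the other genotypes, with 34380 the highest in uvr8-6 and 43580 the lowest elsewhere. As a share of miRNA counts, the lowest library was replicate II of uvr8-6 after 30000 µmol m-2, where 398 counts made up 1.94% (Wilson 95% interval 1.76 to 2.14%, which covers counting error only). Dark wild type held 6.03% ± 0.130 on the same measure and dark uvr8-6 3.02% ± 0.518 (SD, n = 3).

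**Figure D1:**
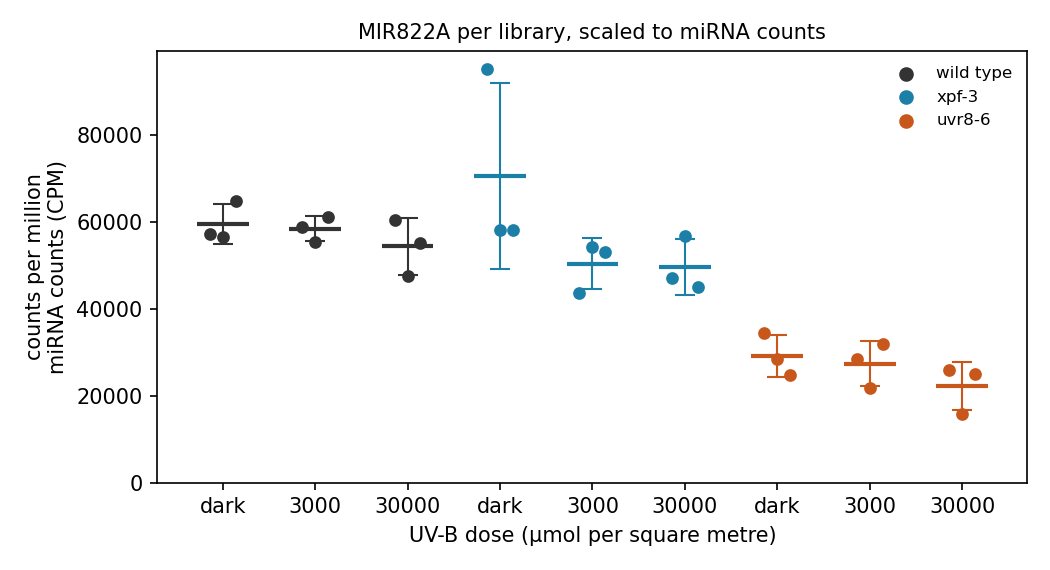
Level of MIR822A in each of the 27 libraries, in CPM of miRNA counts (TMM-scaled), by genotype and UV-B dose; points are libraries, wide lines are group means and error bars SDs (n = 3). The 9 uvr8-6 libraries lie between 15848 and 34380 and the other 18 between 43580 and 95170.

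Ordered by mean miRNA CPM, the groups ran from dark xpf-3 (70458 ± 21402) through wild type dark, 3000 and 30000 µmol m-2 to xpf-3 after the lower (50337 ± 5880) and the higher dose (49563 ± 6340). The 3 uvr8-6 groups followed, with 29200 ± 4840 in the dark, 27307 ± 5157 at 3000 and 22200 ± 5517 at 30000 µmol m-2. Every pair of neighbours in this order overlapped, except xpf-3 after the higher dose and dark uvr8-6, between which the libraries did not meet (44910 and 34380).

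Over the 9 libraries of each genotype, MIR822A averaged 57391 ± 4836 miRNA CPM in wild type, 56786 ± 15442 in xpf-3 and 26236 ± 5473 in uvr8-6. The uvr8-6 mean was 49.1% of wild type in the dark, 46.8% after 3000 and 40.9% after 30000 µmol m-2. Against xpf-3 it was 41.4%, 54.2% and 44.8%. On the log2 scale of the fitted model, uvr8-6 differed from wild type by −1.03, −1.10 and −1.29 (SE 0.21 each) at no, 3000 and 30000 µmol m-2, and by −1.14 ± 0.12 on average. The lower level was thus already present without UV-B and was seen at both doses.

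That difference is the reason MIR822A was chosen, and no p-value is given for it. For the size of the background, 14.9%, 17.8% and 22.8% of the 101 miRNAs passed an adjusted p of 0.05 between uvr8-6 and wild type at the 3 treatments in the same order, and 43.6% passed for the mean of the doses (19.8% higher and 23.8% lower). For that mean, 8 of the 101 miRNAs had a more negative difference than MIR822A. The 9 uvr8-6 libraries lay wholly below the other 18 for 2.97% of miRNAs, which were MIR822A, MIR169M and MIR396B, and wholly above them for 3.96%, which were MIR472A, MIR846A, MIR390B and the unnamed locus AT5G07065. These loci were named after their values were seen. Of them, AT5G07065 averaged 1.56 miRNA CPM in wild type, 0 in xpf-3 and 305 in uvr8-6. It thus passed the count filter through its uvr8-6 libraries alone, and its separation adds nothing to that.

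On the all-RNA scale, uvr8-6 differed from wild type by a log2 value of −1.37 in the dark, −1.19 at 3000 and −1.14 at 30000 µmol m-2. The difference from xpf-3 was −1.37 in the dark but −0.44 after 3000 µmol m-2 (95% interval −1.03 to 0.14) and −0.89 after 30000. Its size after UV-B was thus smaller on this scale than the −0.88 and −1.16 of the miRNA scale. Across doses the separation of genotypes was also less complete. Dark uvr8-6 libraries reached 1558 all-RNA CPM, above the highest wild type library after the higher dose (1495). That value was also above every xpf-3 library after 3000 (highest 1426) and 30000 µmol m-2 (highest 1362). Within each dose, the uvr8-6 libraries still lay below those of both other genotypes. That separation belongs to the difference MIR822A was chosen for, and how many other loci show it was not counted. In the dark the highest uvr8-6 library had 1558 and the lowest of the others 1927. The corresponding values were 1170 and 1299 after 3000 µmol m-2, and 877 and 1046 after 30000.

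Averaged over the 3 genotypes, MIR822A fell after 30000 µmol m-2. The log2 change in miRNA CPM was −0.34 ± 0.12 (SE; 95% interval −0.59 to −0.10), with an adjusted p of 0.0282 in edgeR's quasi-likelihood test over 101 miRNAs. The group mean was lower than in the dark in all 3 genotypes, and 8 of the 9 treated libraries lay below the dark mean of their genotype. In this comparison 34.7% of the miRNAs passed, 19 upward (18.8%) and 16 downward (15.8%). The median log2 change over all 101 was 0.16, and 28 had a more negative change than MIR822A. An exact permutation test of its share of miRNA counts, two-sided within genotypes and chosen after seeing the data, gave a mean log2 change of −0.33 with p = 0.0005 (smallest possible 0.00025).

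The adjusted p for this average depended on single libraries and on the fit. It rose to 0.0593 without replicate III of dark wild type, to 0.0602 without replicate II of wild type after the higher dose and to 0.0637 without replicate II of uvr8-6 after the higher dose. When only the dark and higher-dose groups were fitted, the change was −0.26 with an adjusted p of 0.145.

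Within single genotypes, no dose effect on MIR822A passed on the miRNA scale. After 30000 µmol m-2 the log2 change was −0.13 ± 0.21 (95% interval −0.56 to 0.30) in wild type, −0.51 ± 0.21 (−0.94 to −0.08) in xpf-3 and −0.39 ± 0.21 (−0.83 to 0.04) in uvr8-6. The adjusted p-values (edgeR) were 0.816, 0.0964 and 0.264, where 14.9%, 15.8% and 2.97% of miRNAs passed. The xpf-3 change passed under other settings, with an adjusted p of 0.0306 under DESeq2's size factors within edgeR (RLE) and 0.00409 in DESeq2 itself. Without the high replicate I of dark xpf-3 it was −0.29 with an adjusted p of 0.339. The wild type change was −0.40 with no low-count filter (adjusted p = 0.454) and −0.51 without replicate I of dark wild type (0.0915), against −0.04 without replicate II of the higher dose. The uvr8-6 change ran from −0.56 to −0.20 as single libraries were left out. Scaling factors were recomputed each time a library was left out, and the number of miRNAs that passed then ran from 7 to 19 in wild type, against 15, and from 6 to 17 in xpf-3, against 16.

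After 3000 µmol m-2 the log2 change was −0.03 ± 0.21 (95% interval −0.46 to 0.40) in wild type, where 0.99% of miRNAs passed. In xpf-3 it was −0.49 ± 0.21 (−0.92 to −0.06), with an adjusted p of 0.144 in edgeR against 0.011 in DESeq2, where 6.93% of miRNAs passed. Without replicate I of dark xpf-3 this change was −0.24 (adjusted p = 0.470), and without replicate II of that group it was −0.74 and passed (0.0329). In uvr8-6 it was −0.10 ± 0.21 (−0.53 to 0.33), a sign that turned in DESeq2 (0.01), and edgeR called 0% of miRNAs, with 5 at an unadjusted p below 0.05 and 0 called by DESeq2. Averaged over the genotypes the change was −0.20 ± 0.12 (−0.45 to 0.04; adjusted p = 0.350 in edgeR), where 2.97% passed. These intervals leave room for changes in either direction in wild type and uvr8-6.

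On the all-RNA scale the changes after 3000 µmol m-2 were larger but did not pass in edgeR. The average was −0.55 ± 0.16 (95% interval −0.88 to −0.21; adjusted p = 0.117), where 0.902% of loci passed. In xpf-3 the change was −1.11 ± 0.28 (−1.70 to −0.52; adjusted p = 0.0737), where 0.541% of loci passed. It was −0.36 (−0.94 to 0.23) in wild type and −0.18 (−0.76 to 0.41) in uvr8-6, where edgeR called 0% of loci, with 67 and 56 at an unadjusted p below 0.05.

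Between the 2 doses, the higher minus the lower was −0.10 in wild type, −0.02 in xpf-3 and −0.30 in uvr8-6, with adjusted p-values (edgeR) of 0.889, 1 and 0.530. The share of miRNAs passing was 1.98% in wild type, 1.98% in xpf-3 and 0.99% in uvr8-6. Leaving out single libraries moved the wild type value between −0.42 (without replicate II of the lower dose) and −0.01 (without replicate II of the higher dose). The uvr8-6 value moved between −0.54 and −0.11, the values without replicate III and without replicate II of the higher dose. On the all-RNA scale the difference between doses was −0.73 (95% interval −1.31 to −0.14; adjusted p = 0.405) in wild type, −0.23 (−0.82 to 0.35) in xpf-3 and −0.68 (−1.27 to −0.10; adjusted p = 0.610) in uvr8-6. None of these 3 passed in edgeR, where 0%, 0% and 0.0902% of loci were called, with 102, 55 and 87 at an unadjusted p below 0.05.

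**Figure D2:**
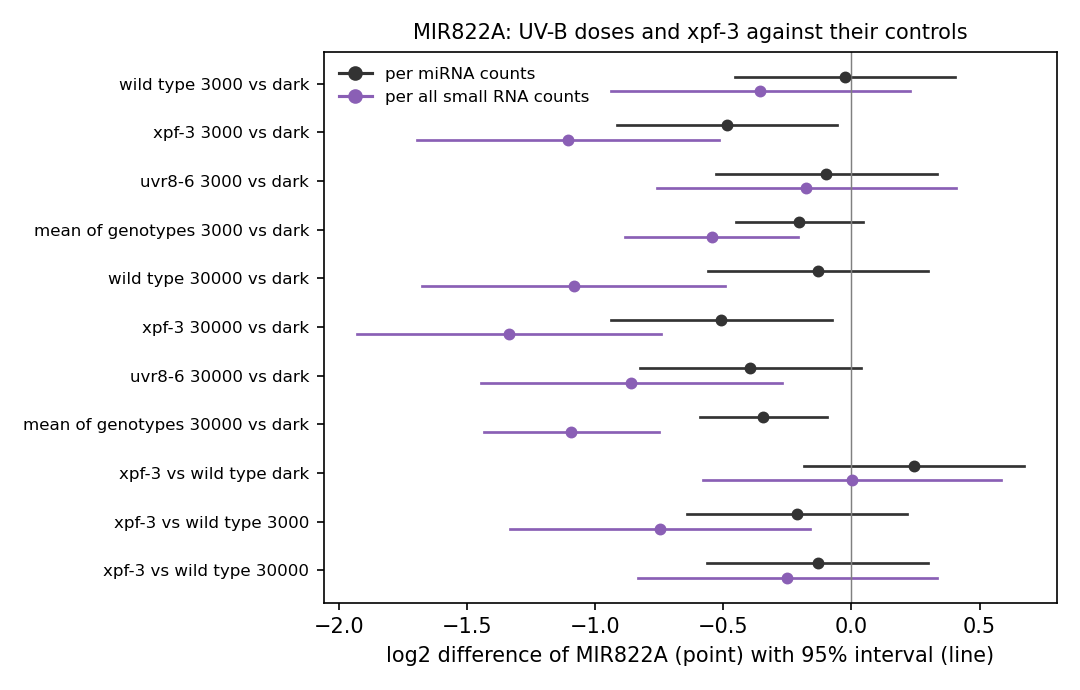
Log2 change of MIR822A after UV-B against the dark control, per genotype and averaged over genotypes, and log2 difference of xpf-3 from wild type at each dose, on the miRNA scale (black) and on the scale of all small RNAs (purple); points are fitted values and lines their 95% intervals. The average change after 30000 µmol m-2 was −0.34 on the miRNA scale and −1.09 on the scale of all small RNAs.

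As a share of all small RNAs, MIR822A fell further after the higher dose. The dark wild type libraries had 1927, 3630 and 3174 all-RNA CPM, and those after 30000 µmol m-2 had 1449, 1495 and 1172. In xpf-3 the dark libraries had 3759, 2016 and 2967 and the higher-dose libraries 1052, 1362 and 1046. In uvr8-6 the dark libraries had 1558, 915 and 906 and the higher-dose libraries 498, 486 and 877. In each genotype all 3 treated libraries lay below all 3 dark libraries, a separation that 9.02% of the 1109 tested loci showed downward in wild type, 14.3% in xpf-3 and 5.5% in uvr8-6.

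The average log2 change on this scale was −1.09 ± 0.16 (adjusted p = 0.000168, edgeR over 1109 loci), where 16.9% of loci passed (7.94% higher, 8.93% lower) and all 9 treated libraries lay below the dark mean of their genotype. The median change of the 101 miRNAs was −0.55 on this scale, so MIR822A stood 0.54 below it, against 0.50 below the miRNA median on the miRNA scale. Within genotypes, the change of −1.34 in xpf-3 passed (adjusted p = 0.00945; 4.87% of loci). That of −1.08 in wild type (adjusted p = 0.0531; 1.89%) and that of −0.86 in uvr8-6 (0.272; 0.541%) did not pass in edgeR. The exact permutation test of the share of all counts gave −0.88 with p = 0.0065 for the higher dose and −0.37 with p = 0.109 for the lower. The miRNA share of all counts moved with this result, and its part in it was not tested.

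**Figure D3:**
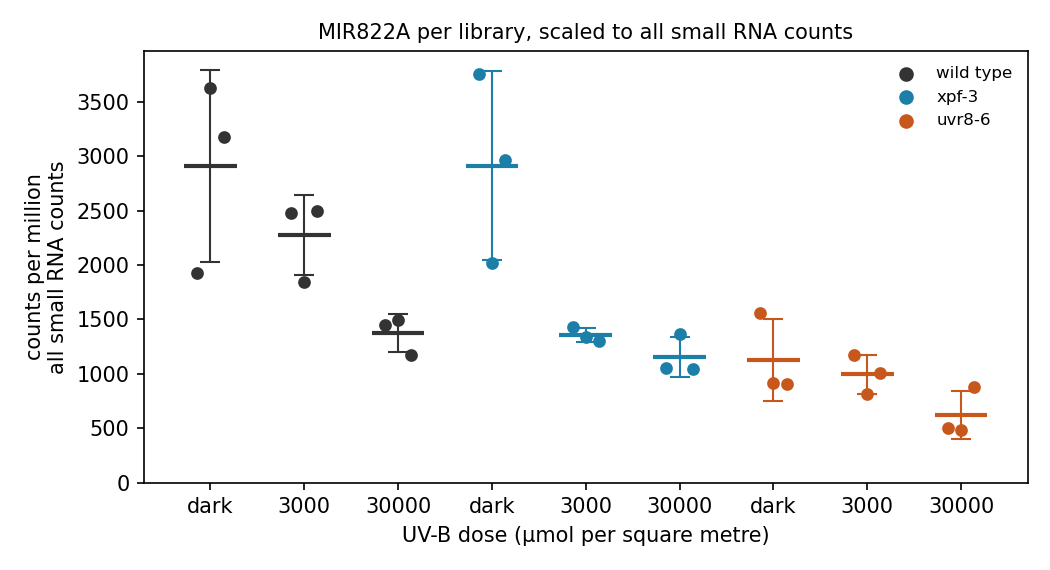
Level of MIR822A in each of the 27 libraries, in CPM of all small RNA counts (TMM-scaled), by genotype and UV-B dose; points are libraries, wide lines are group means and error bars SDs (n = 3). In each genotype the 3 libraries after 30000 µmol m-2 lie below the 3 dark libraries. Dark uvr8-6 (906 to 1558) overlaps wild type after the higher dose (1172 to 1495) and xpf-3 after the lower (1299 to 1426) and higher dose (1046 to 1362). Within each dose the uvr8-6 libraries lie below those of both other genotypes, a separation that was not counted over the other loci.

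The response to UV-B was not shown to differ between genotypes. After the higher dose the xpf-3 response minus the wild type response was −0.38 ± 0.29 on the log2 scale (95% interval −0.98 to 0.23; adjusted p = 0.695, edgeR). The uvr8-6 response minus the wild type response was −0.26 ± 0.29 (−0.87 to 0.35; adjusted p = 0.822), which turned to 0.22 on the all-RNA scale. After the lower dose these differences were −0.46 ± 0.29 (−1.07 to 0.15) and −0.07 ± 0.29 (−0.68 to 0.54), and on the all-RNA scale the first was −0.75 and the second turned to 0.18. In each of these 4 comparisons edgeR called 0% of the miRNAs, with 3 to 9 at an unadjusted p below 0.05, and DESeq2 called 0. The intervals include a difference as large as the average dose effect itself.

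MIR822A in xpf-3 was not shown to differ from wild type. The xpf-3 mean was 118% of wild type in the dark, 86.2% after 3000 and 91.2% after 30000 µmol m-2. The log2 differences were 0.24 ± 0.21 (95% interval −0.18 to 0.67), −0.21 ± 0.21 (−0.64 to 0.22) and −0.13 ± 0.21 (−0.56 to 0.30), with adjusted p-values (edgeR) of 0.728, 0.744 and 0.864. edgeR called 0% of miRNAs at each dose, with 5, 9 and 8 at an unadjusted p below 0.05 and 0, 2 and 0 called by DESeq2. For the mean of the doses the difference was −0.03 ± 0.12 (−0.28 to 0.21), where 1.98% passed. Without replicate I of dark xpf-3, the dark difference was 0.02, and without replicate I of dark wild type it was −0.039. Without replicate II of wild type after the lower dose, the difference at that dose was −0.58 (adjusted p = 0.212). On the all-RNA scale the difference was 0.0019 in the dark, −0.75 after 3000 µmol m-2 (95% interval −1.33 to −0.16; unadjusted p = 0.0152, adjusted p = 0.765), −0.25 after 30000 and −0.33 for the mean of the doses (−0.67 to 0.0052). edgeR called 0% of loci in each of these 4, with 52, 65, 69 and 87 at an unadjusted p below 0.05.

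Both other miRNAs listed as DCL4 products were too rare to set beside MIR822A. MIR839A had 29 counts over the 27 libraries (4 in wild type, 11 in xpf-3 and 14 in uvr8-6) and MIR869A had 13 (2, 9 and 2), so neither was tested. MIR822A, with 53474, was thus the 1 of these 3 loci that could be tested.

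Of the 37 other miRNAs listed as known only from Arabidopsis or its close relatives, 35 were in the table and 16 had enough counts to be tested. Whether each member is absent from other plants was not checked here. After 30000 µmol m-2, averaged over genotypes, 5 of the 16 rose and 0 fell on the miRNA scale, whereas MIR822A fell; 18.8% of all tested miRNAs rose and 15.8% fell. Those that rose were MIR158A (log2 change 0.68), MIR829A (0.57), MIR775A (0.57), MIR161 (0.48), which targets mRNAs of pentatricopeptide repeat proteins, and MIR158B (0.42). The median of the 16 was 0.36 against 0.16 over all 101. These calls depended on the setting. With no low-count filter, still on the miRNA scale, 0 of 33 tested members rose or fell, where 5 of all 302 tested miRNAs rose and 22 fell. The 5 members named above then had adjusted p-values (edgeR) between 0.102 and 0.827. The median was 0.07 both for the list and for all miRNAs. On the all-RNA scale the same 5 members had changes between −0.34 and −0.07. There 0 of the 16 rose and 2 fell, where 7.94% of all tested loci rose and 8.93% fell. The median on that scale was −0.36 for the list and −0.55 for all miRNAs. After 3000 µmol m-2, 0 of the 16 passed in edgeR in either direction on either scale, where 0% of all tested miRNAs rose and 2.97% fell on the miRNA scale and 0.18% of loci rose and 0.721% fell on the other.

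Between uvr8-6 and wild type, averaged over doses, 6 of these 16 were lower and 2 higher, where 43.6% of all miRNAs passed. The lower ones were MIR163 (log2 difference −1.23), which targets methyltransferase mRNAs, MIR858A (−1.02), which targets MYB factors of flavonoid synthesis, MIR829A (−0.82), MIR775A (−0.65), MIR824A (−0.64), which targets AGL16, and MIR161 (−0.43). The higher ones were MIR846A (0.85) and MIR842A (0.80), which target mRNAs of jacalin-related lectins. MIR842A had only 2 to 12 counts in a library. It averaged 114 miRNA CPM in wild type, 202 in xpf-3 and 201 in uvr8-6, so its level was as high in xpf-3. The median of the 16 was −0.18 against −0.07 over all 101, beside −1.14 for MIR822A. Of these 8 calls, 3 were lost under some setting in edgeR. MIR161 missed with RLE factors (adjusted p = 0.0519), no scaling factors (0.0571) and no low-count filter (0.0591). MIR775A missed with no filter (0.104), and MIR842A missed with no filter (0.168) and on the all-RNA scale (0.128).

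The miRNAs most like MIR822A were taken as those with the smallest root mean square difference in the 9 log2 group means, each centred on its own average, among 92 miRNAs with at least 100 miRNA CPM. They were MIR166A (0.143), whose miRNA targets HD-ZIP III factors, MIR396B (0.227), whose miRNA targets growth-regulating factors, MIR169H (0.278) and MIR169M (0.280), whose miRNAs target NF-YA subunits, and MIR163 (0.289). Mean levels in the same order of genotypes as above show the genotype difference for MIR166A, MIR396B and MIR169M. MIR166A had 20305 miRNA CPM in wild type, 19848 in xpf-3 and 10921 in uvr8-6. MIR396B had 7927, 8201 and 2837, and MIR169M had 14421.5, 17196 and 5500.2. Wild type and xpf-3 were thus nearer to each other than to uvr8-6, which was lower, as the measure of likeness selects. The dose pattern was less alike. In wild type at no, 3000 and 30000 µmol m-2, MIR166A had 20993, 21526 and 18395 miRNA CPM, but MIR169M had 12277, 14277 and 16710.5. MIR163 had 733 ± 567 in dark wild type and 1040 ± 257 after 3000 µmol m-2 (SD), so its pattern is loosely fixed. Loci such as MIR166A have copies with the same mature sequence, among which reads may have been divided. The likeness was seen for single loci and not for every locus of the same number. Averaged over doses, uvr8-6 minus wild type (log2) was −0.905 for MIR166A, −1.15 for MIR166C and −0.444 for MIR166E, but 0.987 for MIR166B. It was −1.40 for MIR169M, −0.994 for MIR169H, −0.842 for MIR169L and −0.618 for MIR169C. The fitted difference was not negative for the other MIR169 loci compared, from 0.0212 for MIR169J to 2.46 for MIR169N. At the rarer of these loci it is loosely fixed and need not follow the mean levels. MIR169N averaged 203 miRNA CPM in wild type and 341 in uvr8-6. MIR169F, with a difference of 1.33, averaged 169 and 140, and MIR169J averaged 6197 and 6024.

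The nearest to the reverse of the MIR822A pattern were MIR846A (0.162 from the reversed pattern), MIR156C (0.289), whose miRNA targets SPL factors, and MIR390A (0.305), whose miRNA starts production of trans-acting siRNAs from TAS3. MIR846A averaged 895 miRNA CPM in wild type, 926 in xpf-3 and 1620.4 in uvr8-6. MIR390A averaged 4270, 5636 and 8598, so it too was higher in uvr8-6 than in the other genotypes. These values describe 9 group means that share their libraries and scaling, and no p-value belongs to them.

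**Figure D4:**
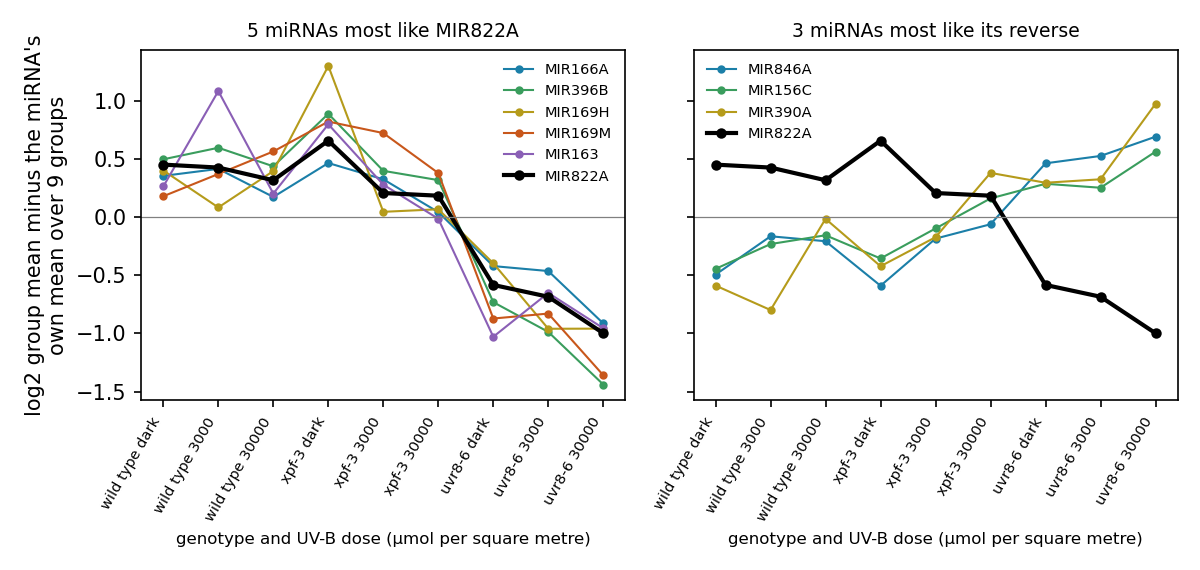
Centred log2 group means over the 9 groups for MIR822A, the 5 miRNAs most like it and the 3 nearest to its reverse, in miRNA CPM (TMM-scaled, pseudocount 1). The line of MIR166A stays closest to that of MIR822A (root mean square difference 0.143), and MIR846A runs closest to the reversed line (0.162).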

How the data were processed

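The deposited raw sheets give each locus a count of reads per library, in whole numbers, for miRNAs and for all small RNAs. The deposited normalized sheets hold a signal equal to that count over a size factor of the median-of-ratios kind (100% of values within 0.01), checked here and not otherwise used. FastQC and cutadapt are named by the submitters' processing notes, and the Clontech SMARter small RNA kit by the labels' protocols. Not given in the sources used here are aligner, build, counting tool and strand setting.

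Groups follow the genotype and treatment labels. Counts were tested in edgeR 4.0.16 (R 4.3.3, limma 3.58.1) by quasi-likelihood with TMM, a minimum count of 10 in filterByExpr, one fit over the 9 groups (27 libraries, residual df 18), and Benjamini-Hochberg adjustment over all tested loci at 0.05. Of 27 comparisons, 19 were tested and 8 described for MIR822A. DESeq2 1.42.0, other scalings, no filter, a replicate block, the compared groups alone and each library left out were alternatives. The steps were tested on simulated data. Sequences came from RefSeq TAIR10.1 and were located by exact match, and RNAfold 2.7.2 gave the fold. In all, 218 deposited columns were not used. Named miRNAs are MIR822A, the members of the lists, and those most like it or its reverse by a fixed rule. The locus and lists were chosen with earlier results of these data known.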

Additional observations from a re-analysis of the deposited data

How the results depend on the processing

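Log2 values of MIR822A follow, with adjusted p in parentheses. The change in xpf-3 after 30000 µmol m-2 passed with RLE factors at −0.58 (0.0306), no scaling factors at −0.47 (0.0320), all small RNAs at −1.34 (0.00945), no low-count filter at −0.86 (0.0107) and DESeq2 at −0.62 (0.00409). That after 3000 µmol m-2 passed with no filter at −0.74 (0.0401), DESeq2 at −0.58 (0.011) and without dark replicate II at −0.74 (0.0329). The average change after 30000 µmol m-2 missed with the compared groups alone at −0.26 (0.145). On the scale of all small RNAs uvr8-6 minus wild type in the dark was −1.37, uvr8-6 minus xpf-3 after 3000 µmol m-2 was −0.44, and the uvr8-6 minus wild type response turned to 0.18 and 0.22 after the lower and higher dose. At the lower dose this response difference also turned to 0.036 with no filter and 0.019 with DESeq2, which gave 0.015 for uvr8-6 after 3000 µmol m-2. With the compared groups alone, uvr8-6 minus wild type after 3000 µmol m-2 was −0.88. The cause of these shifts was not tested. Leaving out single libraries, values ran from −0.22 to 0.038 in wild type after 3000 µmol m-2, from −0.74 to −0.24 in xpf-3, from −0.22 to 0.14 in uvr8-6, from −0.093 to 0.036 for xpf-3 between doses and from −0.51 to −0.28 for the average after 30000 µmol m-2, which passed in 15 of 18 such fits. They ran from −0.039 to 0.37 for xpf-3 minus wild type in the dark and −0.19 to 0.0065 for its mean over doses. For uvr8-6 they ran from −1.24 to −0.77 against dark wild type, −1.22 to −0.84 after 3000 µmol m-2 and −1.39 to −0.88 against dark xpf-3. Those after 30000 µmol m-2 ran from −0.51 to −0.04 in wild type, −0.63 to −0.29 in xpf-3 and −0.56 to −0.20 in uvr8-6, the average after 3000 µmol m-2 from −0.33 to −0.10, and xpf-3 minus wild type from −0.58 to −0.13 at the lower and −0.22 to −0.076 at the higher dose. Response differences ran from −0.63 to −0.20 for xpf-3 at the lower dose and from −0.50 to 0.0015 for xpf-3 at the higher dose, and for uvr8-6 from −0.20 to 0.26 at the lower and −0.42 to 0.015 at the higher dose.

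The replicate block gave −0.34 (0.0248) for the average after 30000 µmol m-2, with 33 miRNAs called against 35, and changed no MIR822A call. Same-numbered libraries correlated above 0.1 in all 3 replicates in 2 of 36 pairs of groups and every library matched its own number best in 3 (r from −0.58 to 0.48), so the numbers were not taken to pair libraries. The number of miRNAs called in xpf-3 after 3000 µmol m-2 was 7, against 3 with no scaling factors, 13 with no filter, 15 with DESeq2 and 13 with the compared groups alone. For the average after 3000 µmol m-2 it was 3, against 5 with no scaling factors or DESeq2 and 7 with no filter. For uvr8-6 minus wild type it was 15 in the dark, against 9 with no filter and 2 with the compared groups alone, and 18 after 3000 µmol m-2, against 10 with no filter. Leaving out single libraries, the number called ran from 4 to 10 in xpf-3 after 3000 µmol m-2, from 0 to 6 in uvr8-6 after 30000 µmol m-2, from 3 to 9 for the average after 3000 µmol m-2, and for uvr8-6 minus wild type from 8 to 17 in the dark and 10 to 20 after 3000 µmol m-2. For the average after 30000 µmol m-2 the split was 19 higher and 16 lower, against 5 and 22 with no filter. The lowest library held 398 counts of MIR822A, and each group mean rests on 3 libraries.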
